A study of Homo sapiens with 12 samples.

Results

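The genes described here are 10 genes of epithelial cell contact, chosen by name: the classical cadherins CDH1 and CDH3, the adhesion molecule EPCAM, the claudins CLDN1, CLDN3, CLDN4 and CLDN7, occludin (OCLN), the scaffold TJP1 and the splicing regulator ESRP1. They are 10 of the 58735 genes listed, and 8 of them had enough reads to be tested in both comparisons. Transcription was measured by RNA-seq of poly-A selected RNA in 12 libraries, 3 in each of 4 groups. The parental SK-BR-3 is an established line of human breast cancer. SK/EPI was obtained from it by long, stepwise exposure to rising concentrations of the anthracycline epirubicin and is resistant to this drug. SK/EPI-siNC and SK/EPI-siBCRP are SK/EPI cells transfected for 48 h with a control siRNA or with siRNA against BCRP, the drug transporter encoded by ABCG2. The first comparison therefore rests on 1 derived line and its parent, and the second on 1 resistant line that carries the same drug history in both arms.

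Epithelial cells hold to each other through adherens junctions and tight junctions. In adherens junctions, cadherins bind cadherins of the neighbouring cell and are linked to actin by catenins. In tight junctions, claudins and occludin form the paracellular barrier and TJP1 (ZO-1) anchors them to the cytoskeleton. ESRP1 and its paralogue ESRP2 bind RNA and maintain the epithelial splice forms of genes such as CD44, FGFR2 and CTNND1. SK-BR-3 is generally known as a luminal HER2-amplified line without E-cadherin.

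The libraries held 15830381 to 20545811 reads on genes, and the expressed members varied little among replicates: the coefficient of variation over the 8 tested genes and 4 groups had a median of 2.39% and ranged from 0.469% to 10.8%. Values are in FPKM, a read count divided by the exon length of the gene and by a total set for each library, and are given for replicates 1, 2 and 3 in this order. That total was not the number of reads on genes, which came to 99.8% to 101% of it in SK-BR-3, 92.8% to 95.4% in SK/EPI and 89.5% to 90.7% in the siRNA groups. The silenced gene ABCG2 was at 32.5, 32.7 and 33.7 FPKM in SK/EPI-siNC and at 2.84, 3.47 and 2.91 FPKM in SK/EPI-siBCRP. In the other table it was at 0.0750, 0.0220 and 0.0520 FPKM in SK-BR-3 and at 33.9, 35.9 and 32.7 FPKM in SK/EPI. The luminal keratins KRT8 and KRT18 and the HER2 amplicon genes ERBB2 and GRB7 were detected in every library. The lowest group means were 765 FPKM for KRT8, 358 FPKM for KRT18, 96.8 FPKM for ERBB2 and 44.3 FPKM for GRB7. The samples are bulk cultures, in which fewer cells of a type and less RNA per cell cannot be told apart. The cells were prepared in triplicate, and the sources do not say whether these were separate cultures, so p-values measure only the spread between these libraries, which may be technical.

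The 2 classical epithelial cadherins were at or close to 0 in all 12 libraries. CDH1 (E-cadherin, ENSG00000039068, chromosome 16, 68737225 to 68835548, GRCh38, plus strand) had 0, 0 and 0 reads in SK-BR-3 and 2, 0 and 2 reads in SK/EPI. It had 17, 6 and 6 reads in SK/EPI-siNC and 7, 6 and 3 reads in SK/EPI-siBCRP. In FPKM the highest library was at 0.121, and the group means were 0, 0.0113 ± 0.00977, 0.0736 ± 0.0407 and 0.0422 ± 0.0166 (SD, n = 3 each). The ranges of the 2 siRNA groups overlapped, and 1 control siRNA library held 17 of the 29 reads of its group. CDH3 (P-cadherin, ENSG00000062038, chromosome 16, 68636189 to 68722616, plus strand) had 0 reads in every one of the 12 libraries.

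A count of 0 allows a level of up to 3 reads, which at these depths was 0.0213 to 0.0306 FPKM for CDH1 and 0.0211 to 0.0303 FPKM for CDH3. These limits cover counting error only. Both genes fell under the filter of 10 reads in 3 libraries, so neither was tested and no fold change is given. The genes antisense to them that share exonic bases, AC099314.1 and AC126773.2, had 0 reads in all libraries.

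**Figure D1:**
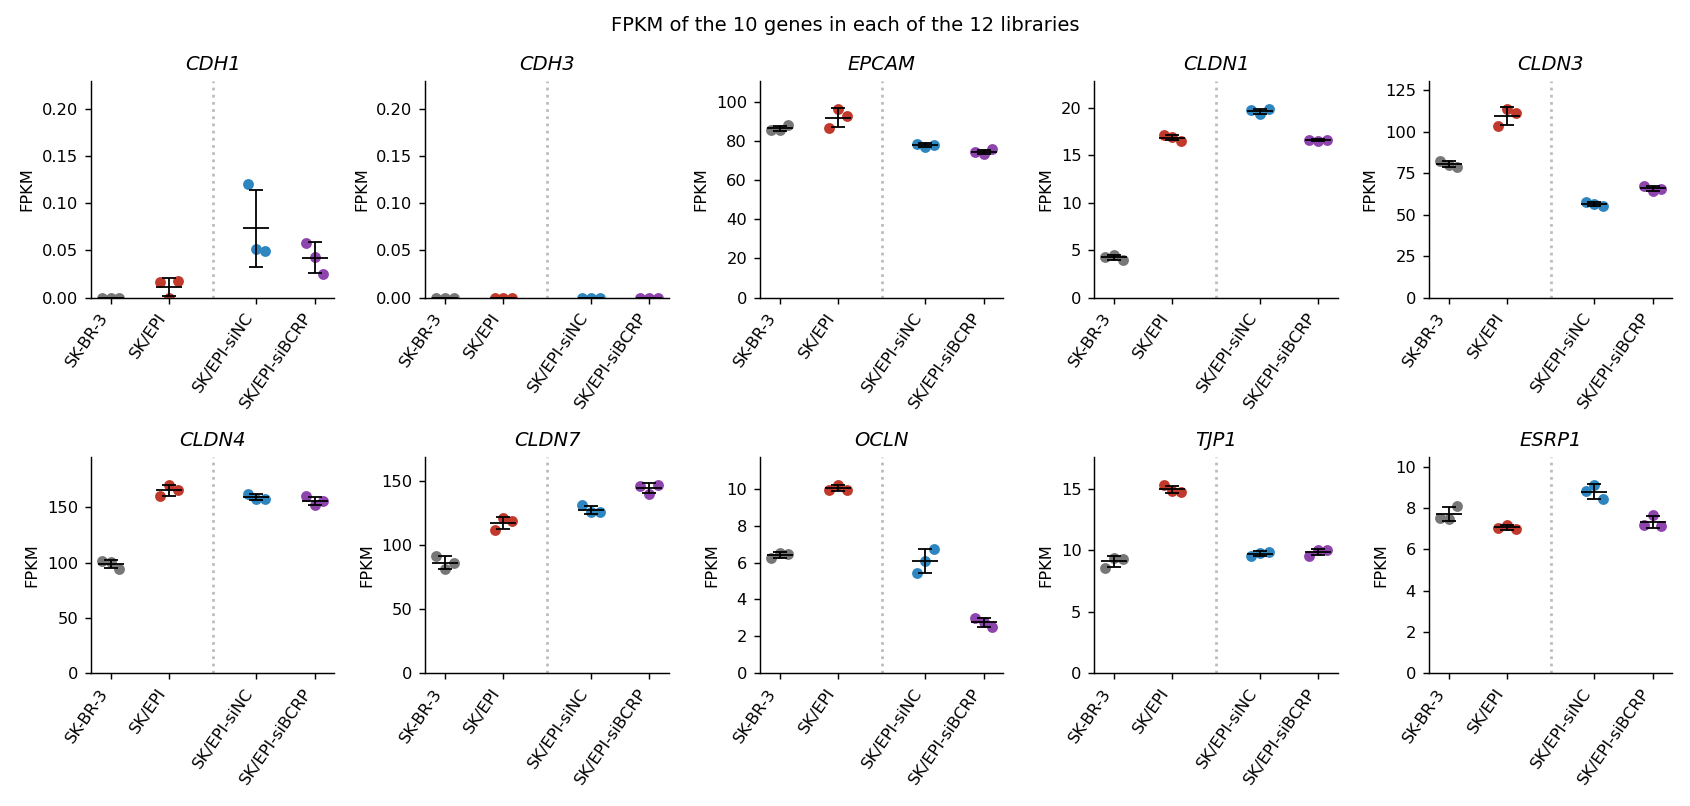
FPKM of each of the 10 genes, 1 panel per gene with its own axis from 0. Points are the 3 libraries of a group, bars are mean ± SD, and the dotted line separates the 2 deposited tables. CDH3 is at 0 throughout, CDH1 stays at or below 0.121 FPKM, and CLDN1 rises from 4.25 to 16.9 FPKM between SK-BR-3 and SK/EPI.

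The genes around CDH1 were transcribed. The 12 other protein-coding genes that start within 500 kb of it all passed the filter, including ZFP90 207 kb upstream (0.615 FPKM in SK-BR-3 and 2.34 FPKM in SK/EPI) and TANGO6 106 kb downstream (0.807 and 1.08 FPKM). CDH1 and CDH3 were thus the only 2 of the 14 genes in this window without enough reads for a test. Of the 12 neighbours, 10 were higher and 2 lower in SK/EPI than in SK-BR-3, with a median log2 difference of 0.37. Over all genes tested in this comparison 37.9% were higher and 36.8% lower, with a median of 0.01. Among the neighbours HAS3, which makes hyaluronan, differed most, with 0.107 ± 0.0630 FPKM in SK-BR-3 (at most 15 reads in a library) and 4.77 ± 0.651 FPKM in SK/EPI. HAS3, counted among the 10 higher ones, passed the filter only through its SK/EPI reads, so its direction was set by the filter. The 2 lower genes were PLA2G15 and ESRP2, the paralogue of ESRP1, which starts 499 kb from CDH1. After BCRP siRNA 3 of the 12 were higher (SLC7A6, PRMT7 and SMPD3), 3 were lower (ESRP2, CHTF8 and SNTB2) and 6 were not called. Over all genes tested there, 19.1% were higher and 18.4% lower.

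**Figure D2:**
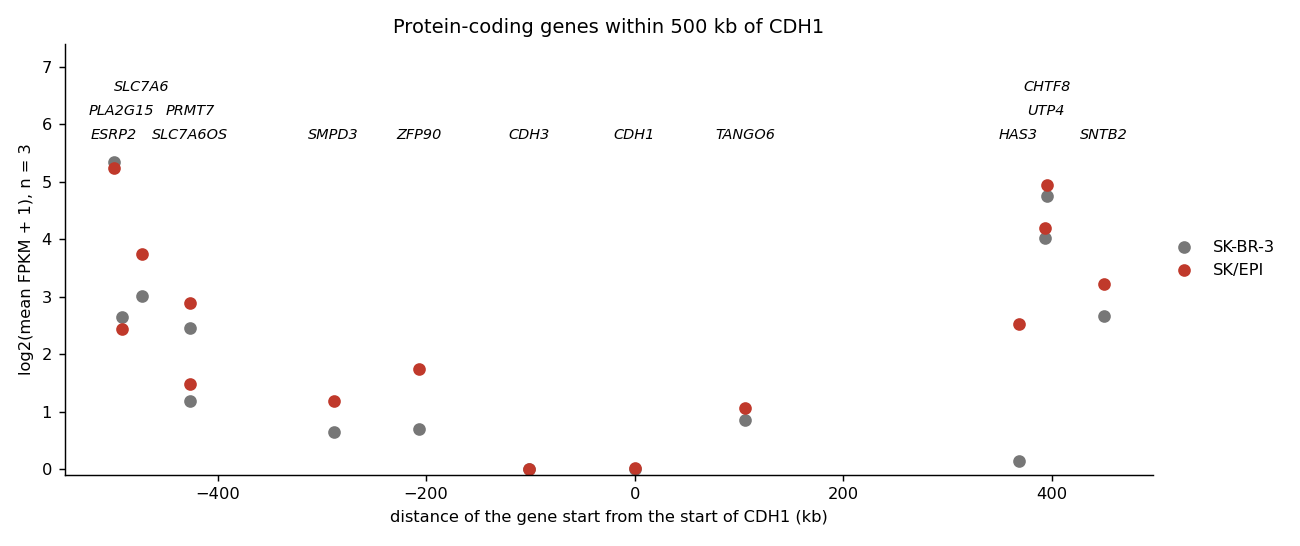
Mean level, as log2(FPKM + 1) of the group mean (n = 3), of the protein-coding genes that start within 500 kb of CDH1, against the distance of their start from that of CDH1 in kb. Grey points are SK-BR-3 and red points SK/EPI. CDH3 and CDH1 lie at or near 0 between the expressed genes ZFP90 and TANGO6, and the widest gap between the groups is at HAS3.

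Of 10 other cadherins listed, 3 were tested in the first comparison. CDH5 (VE-cadherin, best known from endothelium) was at 6.61, 6.82 and 6.88 FPKM in SK-BR-3 and at 26.8, 27.9 and 27.8 FPKM in SK/EPI. The groups did not overlap, and the ratio of means was 4.06, a difference of 1.87 in log2(FPKM + 1) (SE 0.035, adjusted p = 3.76e-09, limma with Benjamini-Hochberg adjustment). CDH4 (0.467 ± 0.0529 and 0.181 ± 0.000593 FPKM) and CDH13 (0.168 ± 0.0177 and 0.00159 ± 0.00276 FPKM) were lower in SK/EPI. CDH13 passed the filter only through its SK-BR-3 reads, so its direction was set by the filter. CDH2 (N-cadherin) was never above 0.0313 FPKM. CDH5 alone made up 89.9% to 91.3% of the summed FPKM of 12 cadherins in SK-BR-3 and 98.8% to 99.1% in SK/EPI.

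In the siRNA table CDH5 was at 13.7, 13.8 and 13.9 FPKM with control siRNA and at 22.3, 22.2 and 22.02 FPKM with BCRP siRNA, again without overlap (log2 difference 0.65, SE 0.022, limma adjusted p = 3.83e-06). It made up 96.3% to 98.2% of the cadherin sum in these 6 libraries. The other endothelial markers did not share this level. VWF was at 0.113 FPKM or less in every library, KDR at 0.0288 FPKM or less, TEK at 0.0984 FPKM or less and PECAM1 at 0.229 FPKM or less.

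**Figure D3:**
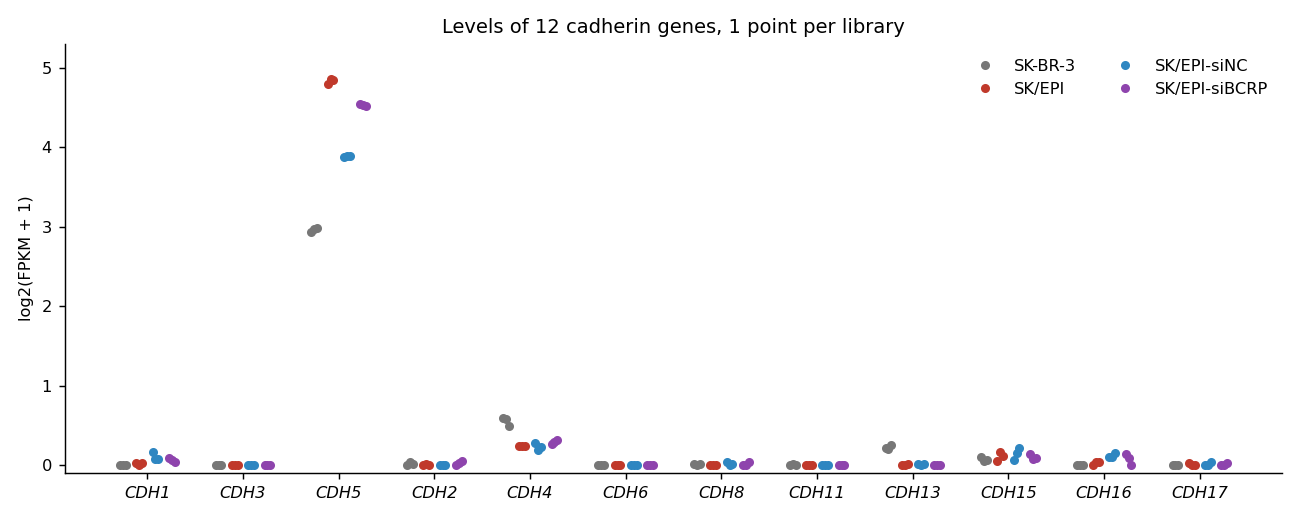
Level of 12 cadherin genes as log2(FPKM + 1), 1 point per library, coloured by group. Among these 12 genes CDH5 is the single one above 1 FPKM in any library, the next is CDH4 with at most 0.506 FPKM, and CDH1 and CDH3 lie at or near 0. Desmosomal cadherins are not among the genes shown.

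The tight junction members, by contrast, were expressed in every group, with the lowest group mean at 2.76 FPKM for OCLN in SK/EPI-siBCRP. CLDN4 had the highest level of the 10 genes in all 4 groups, with means of 98.7 FPKM in SK-BR-3, 165 FPKM in SK/EPI, 159 FPKM in SK/EPI-siNC and 156 FPKM in SK/EPI-siBCRP. In SK-BR-3 it was followed by CLDN7 and EPCAM, whose ranges overlapped, then by CLDN3, TJP1, ESRP1, OCLN and CLDN1, each apart from the next. In SK/EPI the order after CLDN4 was CLDN7 and CLDN3, which overlapped, then EPCAM, CLDN1, TJP1, OCLN and ESRP1. In both siRNA groups it was CLDN7, EPCAM, CLDN3, CLDN1, TJP1, ESRP1 and OCLN, with no overlap between neighbours. CLDN1 was thus last of the 8 in SK-BR-3 and stood above TJP1, OCLN and ESRP1 in the other 3 groups. These are levels per length of all annotated exons of a gene merged, which for EPCAM was 2519 bases against 1724 for its longest transcript. The order of the genes and the claudin shares below therefore depend in part on the annotation.

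The 4 claudins together took 95.0% ± 0.281 (SD, n = 3) of the summed FPKM of 20 claudin genes in SK-BR-3 and 95.7% ± 0.124 in SK/EPI, while the sum itself was 284 ± 8.27 FPKM and 427 ± 15.2 FPKM. Within the sum CLDN4 held 34.8% and 38.7%, CLDN7 30.4% and 27.5%, CLDN3 28.3% and 25.6%, and CLDN1 1.497% and 3.95%.

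The first comparison asked how these transcripts differ between the resistant line and its parent. All 6 tight junction members were higher in SK/EPI, whereas EPCAM and ESRP1 did not pass the threshold. That is 6 higher and 0 lower of 8 tested, with a median difference of 0.51 in log2(FPKM + 1). Over all 15920 genes tested 74.7% were called, 37.9% as higher and 36.8% as lower, with a median of 0.01. The groups did not overlap for 7 of the 8, against 77.5% of all genes tested.

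CLDN1 (chromosome 3, 190305701 to 190322475, minus strand), a claudin of the barrier of skin and other epithelia, was at 4.23, 4.50 and 3.999 FPKM in SK-BR-3 and at 17.1, 16.9 and 16.6 FPKM in SK/EPI. Every SK/EPI library lay far above every SK-BR-3 library. The ratio of means was 3.97, and the difference of 1.77 in log2(FPKM + 1) (SE 0.046, limma adjusted p = 1.86e-08 after Benjamini-Hochberg adjustment) was the largest among the 8 genes. CLDN1 was also the 1 gene of the 8 called with a difference of at least 1, which 7.85% of all genes tested reached upward and 6.51% downward.

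CLDN4 (chromosome 7, 73799542 to 73832693, plus strand) was at 101, 100.3 and 94.6 FPKM in SK-BR-3 and at 159.9, 170.1 and 166 FPKM in SK/EPI. Its ratio was 1.67 and its log2 difference 0.74 (SE 0.040, limma adjusted p = 1.14e-06). CLDN3, which starts 29 kb away (73768997 to 73770270, minus strand), was at 82.2, 79.9 and 78.8 FPKM and at 103, 113 and 111 FPKM. Here the ratio was 1.36 and the log2 difference 0.44 (SE 0.042, limma adjusted p = 2.99e-05). Both proteins are known as receptors of a clostridial enterotoxin, and the groups were separated without overlap in both genes. Of the 18 other protein-coding genes tested within 500 kb of CLDN4, 5 were higher, 8 lower and 5 not called, with a median of -0.01. Over all genes tested 37.9% were higher and 36.8% lower.

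CLDN7 (chromosome 17, 7259903 to 7263983, minus strand), which also lies outside tight junctions on the lateral membrane, was at 91.5, 81.7 and 85.9 FPKM in SK-BR-3 and at 112, 121 and 119 FPKM in SK/EPI. Its ratio was 1.36 (log2 difference 0.44, SE 0.050, limma adjusted p = 9.66e-05). Of its exonic bases 10.8% are shared with AC003688.1 on the same strand and 1.52% with ELP5 on the other strand, so a part of these reads could belong to either neighbour.

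OCLN (chromosome 5, 69492292 to 69558104, plus strand), a membrane protein of the tight junction strand, was at 6.24, 6.51 and 6.48 FPKM in SK-BR-3 and at 9.96, 10.2 and 9.95 FPKM in SK/EPI. The ratio was 1.57 and the log2 difference 0.58 (SE 0.038, limma adjusted p = 3.79e-06). The pseudogene OCLNP1 matches 10.5% of the OCLN transcript at 95% identity or more, and its share of the reads is uncertain. TJP1 (chromosome 15, 29699367 to 29968865, minus strand) was at 8.56, 9.42 and 9.32 FPKM and at 15.3, 14.8 and 14.7 FPKM. Its ratio was 1.64 and its log2 difference 0.66 (SE 0.044, limma adjusted p = 3.80e-06).

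EPCAM (chromosome 2, 47345158 to 47387601, plus strand), a surface glycoprotein of epithelial cells that binds CLDN7, was at 85.7, 85.3 and 88.0 FPKM in SK-BR-3 and at 86.5, 96.1 and 92.6 FPKM in SK/EPI. The groups overlapped, and the log2 difference was 0.08 with a 95% interval from -0.01 to 0.18 (limma adjusted p = 0.106). Without SK/EPI replicate 1 it was 0.13 and passed the threshold (limma adjusted p = 0.0163). The pseudogene AC093840.1 matches 19.3% of its transcript.

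ESRP1 (chromosome 8, 94641074 to 94707466, plus strand) was at 7.51, 7.50 and 8.11 FPKM in SK-BR-3 and at 7.04, 7.21 and 6.99 FPKM in SK/EPI. All 3 SK/EPI libraries lay below all 3 SK-BR-3 libraries, but the difference was small, -0.11 in log2(FPKM + 1) (SE 0.045), and missed the threshold (limma adjusted p = 0.0592). It passed under 2 of the other settings, while with voom on recovered reads it was -0.037 (adjusted p = 0.573).

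**Figure D4:**
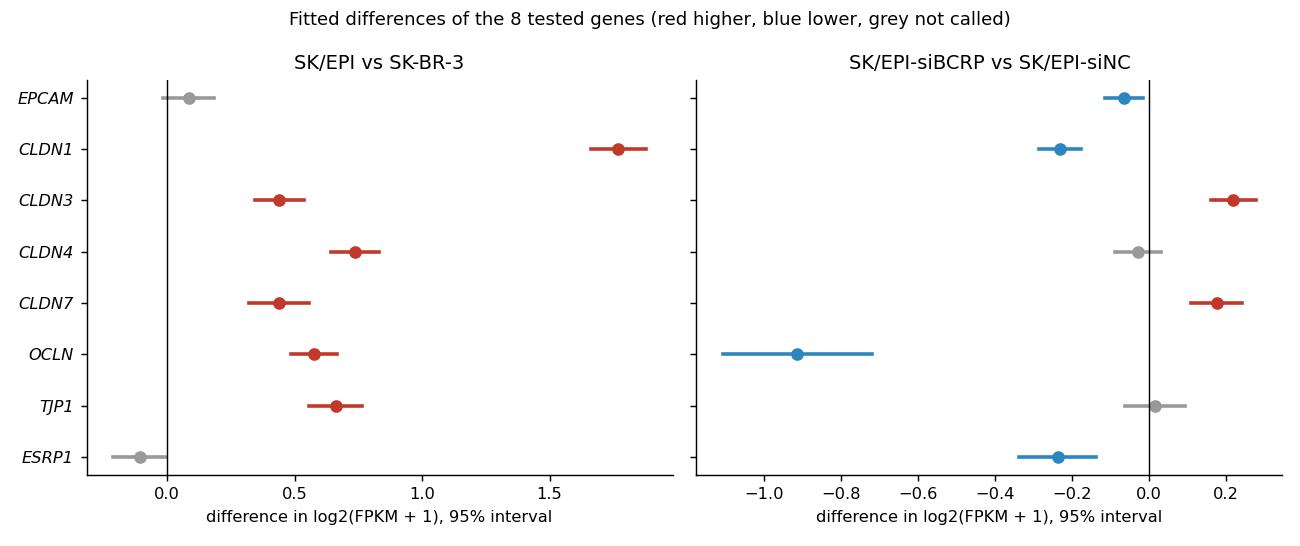
Fitted differences in log2(FPKM + 1) of the 8 tested genes with 95% intervals, SK/EPI minus SK-BR-3 on the left and SK/EPI-siBCRP minus SK/EPI-siNC on the right, on separate axes. Red marks genes called higher, blue genes called lower and grey genes not called. CLDN1 lies farthest from 0 on the left at 1.77 and OCLN on the right at -0.91.

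Promoter sequences in RefSeq (GRCh38.p14) were matched by symbol for 6 of the 10 genes, CLDN1, CLDN3, CLDN4, CLDN7, OCLN and TJP1, with 11 start sites in all. Since these are the 6 genes that were higher in SK/EPI, 3 of their windows are shown, each the 250 bases before a start, read 5′ to 3′ on the gene's strand. They are CLDN1, the gene with the largest difference, at chr3:190322447-190322696 (minus strand), CLDN3 at chr7:73770271-73770520 (minus strand), and the outermost start of TJP1 at chr15:29969050-29969299 (minus strand). The annotated gene CLDN16, another claudin, starts inside the CLDN1 window, at 190322541 on the plus strand. The last 29 bases of the CLDN1 window are exon of CLDN1 in GENCODE 29, the annotation used for the exon lengths. Capitals mark GC boxes, the letters GGGCGG on either strand (GGGCGG or CCGCCC), which SP and KLF family factors are known to bind.
CLDN1: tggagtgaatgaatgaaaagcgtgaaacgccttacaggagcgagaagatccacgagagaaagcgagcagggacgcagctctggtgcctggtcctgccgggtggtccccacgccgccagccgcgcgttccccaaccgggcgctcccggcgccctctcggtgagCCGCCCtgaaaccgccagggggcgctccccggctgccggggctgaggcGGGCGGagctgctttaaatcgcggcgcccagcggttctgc
CLDN3: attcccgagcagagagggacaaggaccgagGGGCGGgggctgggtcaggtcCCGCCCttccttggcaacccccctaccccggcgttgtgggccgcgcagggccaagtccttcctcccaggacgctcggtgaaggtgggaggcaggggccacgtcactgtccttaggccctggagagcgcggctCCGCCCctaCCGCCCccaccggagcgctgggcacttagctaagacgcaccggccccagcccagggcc
TJP1: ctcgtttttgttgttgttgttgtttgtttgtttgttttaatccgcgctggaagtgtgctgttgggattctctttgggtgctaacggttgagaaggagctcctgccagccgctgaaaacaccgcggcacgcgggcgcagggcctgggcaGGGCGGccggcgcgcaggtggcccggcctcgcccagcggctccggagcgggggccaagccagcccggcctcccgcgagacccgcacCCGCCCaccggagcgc

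The CLDN1 window held 2 GC boxes, at -88 and -40 from the start, the CLDN3 window 4, at -220, -199, -67 and -58, and the TJP1 window 2, at -102 and -16. A GC box was found in 8 of the 11 windows, and in 42.6% of 35116 promoter windows of the same length. The E-box CAGGTG (or CACCTG on the other strand), the letters that SNAI and ZEB repressors are known to bind, was absent from the windows of CLDN1, CLDN3 and CLDN4. It was present in 4 of the 11 windows, against 17.5% of all: both OCLN windows (-33 and -133), 1 of 4 TJP1 windows (-88, the one shown) and 1 of 2 CLDN7 windows (4 times). Of the other motifs searched on both strands, CCAAT was in 2 of the 11 windows (32.0% of all), TATAAA in 0 (10.7% of all) and the Grainyhead motif AACCGGTT in 0 (0.117% of all). These matches are letters in a window and show no binding.

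Transcripts of the partners of cadherins were mostly lower. Of 9 catenin, nectin and linker genes tested, 8 were lower in SK/EPI and 1, AFDN, was higher, with a median of -0.41. Over all 15920 genes tested, 36.8% were lower and 37.9% higher. The same shares stand beside the counts of the other lists in this comparison. JUP (plakoglobin, the catenin shared by adherens junctions and desmosomes) was at 289, 299.7 and 298 FPKM in SK-BR-3 and at 117, 122 and 127 FPKM in SK/EPI (log2 difference -1.27, SE 0.040, limma adjusted p = 4.91e-08). The nectins, immunoglobulin-like adhesion molecules of the same junction, were lower as well: NECTIN1 fell from 36.3 ± 1.67 to 13.5 ± 0.370 FPKM and NECTIN4 from 16.2 ± 0.702 to 5.00 ± 0.189 FPKM. JUP thus remained above 100 FPKM in cells with almost no CDH1 reads.

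Of the 16 other claudins, 6 were tested, 4 were higher, 0 lower and 2 not called (median 0.29). CLDN15 was at 3.02 ± 0.370 FPKM in SK-BR-3 and 4.46 ± 0.362 FPKM in SK/EPI. CLDN16, counted among the higher ones, had no read in SK-BR-3 and was at 0.399, 0.340 and 0.238 FPKM in SK/EPI. It passed the filter only through its SK/EPI reads, so its direction was set by the filter and no p-value is given. The wider list of tight junction and polarity genes was mixed, with 7 higher, 5 lower and 5 not called of 17 tested (median 0.05). Its 2 PAR6 genes, which encode alternative adaptors of the apical polarity complex, differed in opposite directions. PARD6B was at 3.17 ± 0.157 FPKM in SK-BR-3 and 20.4 ± 0.299 FPKM in SK/EPI (log2 difference 2.36), and PARD6A at 3.14 ± 0.247 and 0.802 ± 0.176 FPKM (-1.20).

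Among desmosome genes 4 were higher and 6 lower of 10 tested (median -0.32). PKP2 (plakophilin 2) rose from 3.50 ± 0.226 to 18.2 ± 0.787 FPKM, and the desmosomal cadherin DSC2 (desmocollin 2) fell from 13.8 ± 0.433 to 3.15 ± 0.0702 FPKM. Among 19 epithelial regulators and surface proteins 4 were higher, 14 lower and 1 was not called (median -0.49). EHF, an ETS factor of epithelia, was at 5.65, 6.06 and 6.54 FPKM in SK-BR-3 and at 41.2, 40.6 and 36.8 FPKM in SK/EPI (log2 difference 2.52). KLF4 (-2.44), the vesicle GTPase RAB25 (-2.51) and MAL2 (-1.60), which acts in transport to the apical membrane, were lower.

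ESRP2 was the more abundant of the 2 ESRP genes, with 39.5 ± 1.56 FPKM in SK-BR-3 and 37.0 ± 0.315 FPKM in SK/EPI. Its difference of -0.09 passed the threshold (limma adjusted p = 0.0387), but did not without SK-BR-3 replicate 2 (-0.063, 0.112) or without any of the 3 SK/EPI libraries (-0.10 to -0.090). It also did not with the replicate block (adjusted p = 0.0672), and with voom the difference was -0.011 (adjusted p = 0.787). Of 6 genes with exons known to be set by ESRP, 2 were higher, 3 lower and 1 was not called (median -0.10). CD44, a hyaluronan receptor, was at 0.403, 0.398 and 0.357 FPKM in SK-BR-3 and at 7.39, 7.33 and 7.88 FPKM in SK/EPI (log2 difference 2.62, SE 0.055, limma adjusted p = 6.70e-09). These are gene totals, and exon use was not measured here.

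Of 12 genes known to repress epithelial genes, 5 were tested, 3 were higher, 1 lower and 1 not called (median 0.61), and 2 were lower without SK-BR-3 replicate 2. SNAI1 (Snail) was at 1.87, 1.48 and 1.65 FPKM in SK-BR-3 and at 6.05, 6.79 and 7.50 FPKM in SK/EPI (log2 difference 1.54), and KLF8 at 2.93 ± 0.119 and 14.7 ± 0.270 FPKM (2.00). ZEB1, ZEB2 and SNAI2 had no read in any of these 6 libraries, and TWIST1 had reads in 1 of them, at 0.0817 FPKM.

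**Figure D5:**
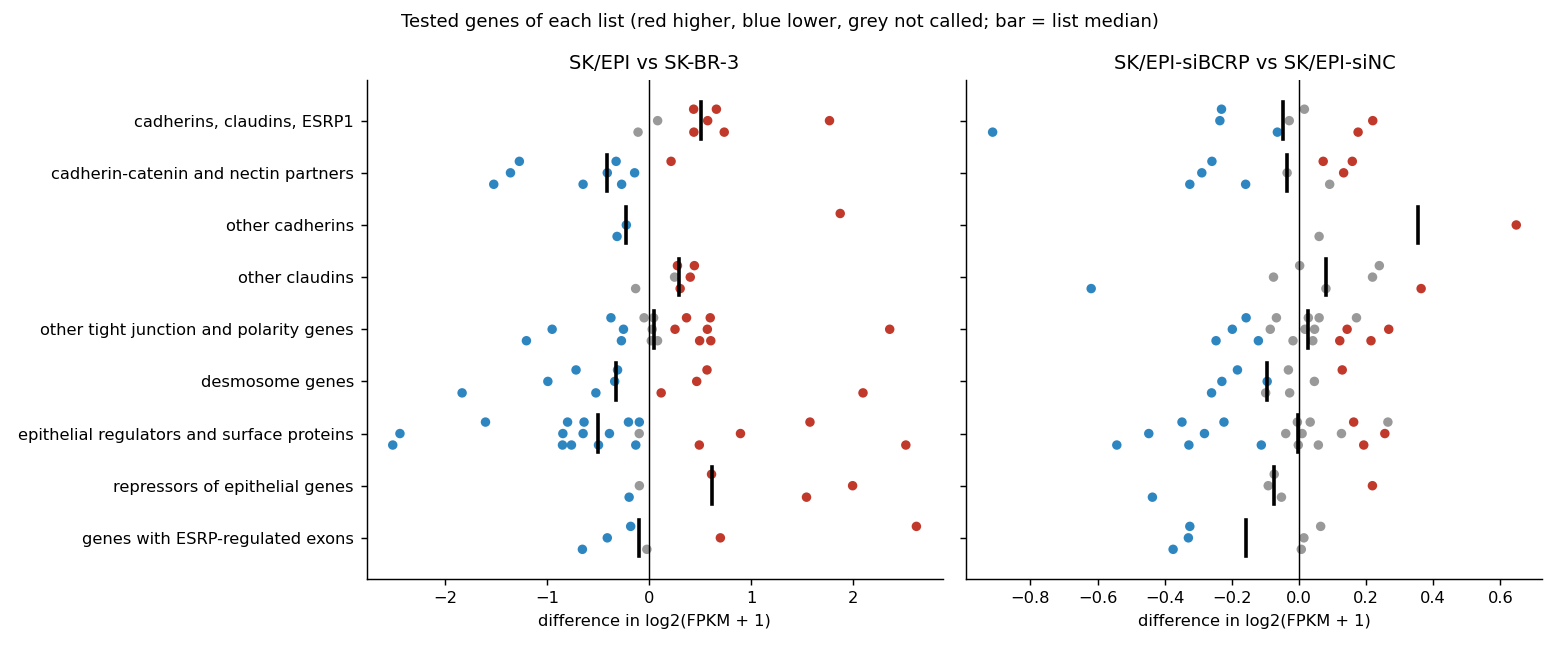
Differences in log2(FPKM + 1) of the tested genes of 9 lists, SK/EPI minus SK-BR-3 on the left and SK/EPI-siBCRP minus SK/EPI-siNC on the right, on separate axes. Each point is a gene, red higher, blue lower and grey not called, and the black bar is the list's median. On the left the bar of the 10 genes lies at 0.51 and that of the cadherin partners at -0.41.

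Markers of other cell types moved in part with these differences. All 6 basal or myoepithelial markers were higher in SK/EPI, and their summed level was 0.778 to 0.867 FPKM in SK-BR-3 and 12.3 to 14.03 FPKM in SK/EPI, led by KRT5 (log2 difference 3.05), TP63 (1.59) and MYLK (1.11). At the SK-BR-3 sums not all of these markers could have had 10 reads in every SK-BR-3 library. Any that passed the filter only through SK/EPI reads had its direction set by the filter, so the count of 6 is in part set by it. Of 10 luminal HER2 markers 4 were higher and 6 lower, and the sum was 3788 to 3992 and 2195 to 2308 FPKM. ERBB2 (-2.30), GRB7 (-1.27), STARD3 (-2.04), KRT19 (-1.69), FOXA1 (-3.15) and SPDEF (-4.88) were the lower ones. KRT8, KRT18, MUC1 and GATA3 were the higher ones. Of 10 fibroblast or mesenchymal markers 5 were tested, 3 higher and 2 lower, with a sum of 20.5 to 22.2 and 148 to 157 FPKM. Nearly all of the second sum was SPARC, at 137, 146 and 145 FPKM, while FN1 was lower (-1.01). In this table VIM, LUM and DCN were at or below 0.0368 FPKM. Of 6 haematopoietic markers 3 were tested, 1 higher, 1 lower and 1 not called (median -0.19). The higher one was CD14 (0.513 ± 0.0502 and 27.4 ± 0.760 FPKM), and the number called lower was 2 without SK-BR-3 replicate 1, without SK/EPI replicate 3 or with the replicate block. PTPRC, which defines leukocytes, was at or below 0.0175 FPKM, and the list's sum was 1.54 to 1.77 and 27.2 to 28.97 FPKM. Of 5 endothelial markers 3 were tested, with CDH5 and PECAM1 higher and VWF not called, and the sum was 6.70 to 6.99 and 27.0 to 28.2 FPKM. The part of such genes in the differences of the 8 members was not tested.

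The second comparison asked what BCRP siRNA changed within the resistant line. Of the 8 tested genes 2 were higher (CLDN3 and CLDN7), 4 lower (EPCAM, CLDN1, OCLN and ESRP1) and 2 not called (CLDN4 and TJP1), with a median of -0.05. Over all 16511 genes tested 37.5% were called, 19.1% as higher and 18.4% as lower, with a median of -0.0032. The groups did not overlap for 6 of the 8, against 50.4% of all genes tested.

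OCLN was at 5.45, 6.07 and 6.76 FPKM in SK/EPI-siNC and at 3.01, 2.78 and 2.50 FPKM in SK/EPI-siBCRP. Although it was the most variable of the 8 genes among replicates, the lowest control library was well above the highest BCRP siRNA library. The ratio of means was 0.453, and the difference of -0.91 in log2(FPKM + 1) (SE 0.082, limma adjusted p = 1.72e-04 after Benjamini-Hochberg adjustment) was the largest of the 8 in size. A difference of at least 1 in size with a call was rare in this table, at 0.0666% of genes upward and 0.339% downward, and none of the 8 genes reached it on this scale. OCLN did reach it with a pseudocount of 0.1 (-1.11, limma adjusted p = 1.29e-04) and with voom on recovered reads (-1.14, adjusted p = 6.78e-12).

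The claudins did not move together. CLDN1 was at 19.8, 19.4 and 19.9 FPKM with control siRNA and at 16.7, 16.5 and 16.6 FPKM with BCRP siRNA, a log2 difference of -0.23 (SE 0.023, limma adjusted p = 2.83e-04). CLDN3 was at 57.4, 56.2 and 55.3 FPKM and at 67.2, 64.3 and 65.6 FPKM, a log2 difference of 0.22 (SE 0.025, limma adjusted p = 5.00e-04). CLDN7 was at 131, 126 and 126 FPKM and at 146, 139.8 and 147 FPKM, a log2 difference of 0.18 (SE 0.028, limma adjusted p = 0.00269). In each of the 3 genes the groups were apart.

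CLDN4, the neighbour of CLDN3, was at 162, 157 and 158 FPKM and at 159.8, 152 and 155 FPKM. These groups overlapped, and the 95% interval of the log2 difference of -0.03 ran from -0.09 to 0.03 (limma adjusted p = 0.414). For TJP1, at 9.52, 9.82 and 9.89 FPKM and at 9.55, 10.005 and 10.03 FPKM, the difference was 0.02 with an interval from -0.06 to 0.09 (limma adjusted p = 0.737). Around CLDN4, 6 of 18 other genes were higher, 3 lower and 9 not called, beside 19.1% higher and 18.4% lower over all genes tested.

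ESRP1 was at 8.85, 9.12 and 8.42 FPKM in SK/EPI-siNC and at 7.17, 7.65 and 7.15 FPKM in SK/EPI-siBCRP. The groups did not overlap, and the log2 difference was -0.24 (SE 0.042, limma adjusted p = 0.0045). ESRP2 fell from 48.4 ± 0.536 to 37.8 ± 0.377 FPKM (-0.35, limma adjusted p = 2.46e-05), so both ESRP genes were lower after BCRP siRNA. EPCAM was at 78.6, 77.0 and 77.9 FPKM and at 74.3, 73.3 and 75.6 FPKM. Its difference of -0.06 was the smallest one called (limma adjusted p = 0.0447), and the call was lost when any single library other than SK/EPI-siBCRP replicate 3 was left out (-0.072 to -0.054).

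The genes most like ESRP1 over both differences, by Euclidean distance among 12952 genes tested in both tables with a mean of at least 1 FPKM in some group, were IKZF2 (distance 0.00676), MTPN (0.0129) and PNPLA8 (0.0139). IKZF2 differed by -0.10 between the lines and by -0.24 between the siRNA groups. No such genes are given for CDH1, which was not tested.

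In the other lists the siRNA differences went in both directions. Over all genes tested in this comparison 19.1% were higher and 18.4% lower, shares that also stand beside the marker counts below. The cadherin partners had 3 higher, 4 lower and 2 not called of 9, among them CTNND1 (p120 catenin, -0.33) and JUP (-0.29). Other cadherins had 1 higher, CDH5, and 1 not called, CDH4. Other claudins had 1 higher (CLDN15, 0.36), 1 lower (CLDN12, from 6.61 ± 0.110 to 3.96 ± 0.170 FPKM, -0.62) and 5 not called of 7. The tight junction and polarity list had 4 higher, 4 lower and 9 not called of 17, with the widest differences in LSR (0.27), the angulin of tricellular contacts, and PATJ (-0.25). Both counts of this list were 2 with the replicate block and ranged from 2 to 3 when single libraries were left out.

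Desmosome genes had 1 higher, 4 lower and 4 not called of 9, with EVPL at -0.26 and PPL at -0.23, both plakins. The epithelial regulators had 3 higher, 7 lower and 8 not called of 18, with the transcription factors GRHL1 at -0.54 and OVOL2 at -0.45. Of the repressors 1 was higher (TCF3, 0.22), 1 lower (KLF8, -0.44) and 3 not called, and SNAI1 was at 7.55 ± 0.965 and 7.24 ± 0.686 FPKM. Of the 6 genes with ESRP exons 3 were lower (SLK at -0.37, ARHGEF11 at -0.33 and CTNND1) and 3 not called, CD44 among them.

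Among the cell type markers, 7 of 10 luminal HER2 genes were lower, 1 was higher and 2 were not called, led by SPDEF (-0.69) and GRB7 (-0.49), with sums of 2612 to 2659 FPKM with control siRNA and 2179 to 2224 FPKM with BCRP siRNA. Of 6 basal markers 3 were higher, 2 lower and 1 not called, led by KRT17 (0.83) and KRT14 (0.42), with sums of 25.5 to 26.2 and 32.0 to 32.3 FPKM. Of 6 fibroblast markers tested 1 was higher (SPARC, 0.22), 2 were lower (FN1, -0.38, and COL3A1) and 3 not called. Of 3 haematopoietic markers CD14 was higher (0.20), a call lost without any single library but SK/EPI-siNC replicate 2 (0.13 to 0.23), and 2 were not called. The CD14 call was also lost without a filter (limma adjusted p = 0.131), with equal FPKM sums (0.0711), with the replicate block (0.0974), without a trend (0.0590) and with voom (0.0502). It was kept with a pseudocount of 0.1 (0.0450), the filter at a mean of 1 FPKM (0.0438) and median-of-ratios scaling (0.0431). Of 3 endothelial markers CDH5 was higher and 2 were not called.

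The 2 tables were deposited separately and may have been normalized separately, so SK/EPI and SK/EPI-siNC are only set side by side. CLDN3 had a mean of 109 FPKM in SK/EPI and 56.3 FPKM in SK/EPI-siNC, TJP1 of 15.0 and 9.74 FPKM, and OCLN of 10.04 and 6.09 FPKM. CLDN4 was at 165 and 159 FPKM, CLDN7 at 117 and 128 FPKM, CLDN1 at 16.9 and 19.7 FPKM, EPCAM at 91.7 and 77.9 FPKM, and ESRP1 at 7.08 and 8.80 FPKM. No test was made across the tables.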

How the data were processed

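The authors deposited 2 tables of 58735 genes with FPKM values, SK-BR-3 with SK/EPI and SK/EPI-siNC with SK/EPI-siBCRP. The unit is not stated in them. It was read from the values, which times the merged exon length of GENCODE 29 (GRCh38) were whole multiples of 1 step per library, so reads could be recovered. Per the submitters' processing notes, HISAT2 2.0.5, featureCounts 1.5.0-p3, DESeq2 1.16.1 and hg38 were used. How featureCounts was set for strand and for multiply mapped reads is not given in the sources used here.

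Groups were taken from the sample labels. Genes with at least 10 reads in at least 3 libraries and 15 in all were tested within each table with limma 3.58.1 (lmFit, eBayes with a trend) in R 4.3.3 on log2(FPKM + 1), with the group alone, Benjamini-Hochberg adjustment and a threshold of 0.05. This scale understates differences of genes at low FPKM. Named genes were the 10 members, list genes called with a log2 difference of at least 1 or else the 2 largest in size, label markers, ABCG2, neighbours within 500 kb and nearest profiles. List members given without a difference of their own, ESRP2, the markers at or near 0, CDH2, CD44 and SNAI1 after siRNA, and values beside a neighbouring list gene were chosen after their values were seen. The members and lists were chosen with earlier results of these data known. Near copies were found with blastn 2.17.0. The steps were tested on simulated data. Alternatives were another pseudocount, 2 filters, 2 scalings, a replicate block, eBayes without a trend, voom on recovered reads and leaving out each library. Results of some list genes are not reported here.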

Additional observations from a re-analysis of the deposited data

How the results depend on the processing

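No difference among the members changed direction with a call, and the 6 higher calls in SK/EPI were kept under all settings run. The call of ESRP2 between the lines was also lost without a filter (limma adjusted p = 0.0656) and without a trend (0.0778). ESRP1 passed the threshold as lower in SK/EPI with a filter at a mean of 1 FPKM (-0.11, limma adjusted p = 0.0489) and with median-of-ratios scaling (-0.12, 0.0460), which took the members called lower from 0 to 1, and with voom its difference was -0.037 (0.573). EPCAM passed as higher with voom (0.17, 0.000262), under which the median of all genes was 0.10, and when libraries were left out its difference ranged from 0.051 to 0.13. After BCRP siRNA the lower call of EPCAM was lost without a filter (-0.064, limma adjusted p = 0.0805), with median-of-ratios scaling (-0.060, 0.0559), with the replicate block (-0.064, 0.0774) and without a trend (-0.064, 0.152), and its values ranged from -0.076 to -0.054 when single libraries were left out. The cause was not tested. With voom 11 tight junction and polarity genes were higher in SK/EPI, against 7. After BCRP siRNA, leaving out single libraries moved the desmosome genes called higher from 1 to 0, the fibroblast and the basal markers called lower from 2 to 1 and the other claudins called higher from 1 to 2. The filter at a mean of 1 FPKM left 3 of the 6 basal markers called higher and 0 of the repressors called lower in SK/EPI. Of 1394 and 1382 values of the other named genes under the alternatives, 29 and 79 lost a call, 13 and 13 gained one and none reversed.

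Same-numbered libraries shared only a number: their deviations from the group means correlated by -0.04, 0.0041 and -0.06 in the first table and by 0.02, 0.05 and 0.0073 in the second. With the replicate block 5908 genes were higher and 5769 lower in SK/EPI (6028 and 5858 without), and 2878 and 2720 after BCRP siRNA (3152 and 3040 without). CDH1 and CDH3 had too few reads to be tested.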
